A study of Mus musculus with 7 samples.

Results

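The nuclei described here are the striatal cholinergic interneurons as the study's authors annotated them, that is, all nuclei given the cell type IN-Chat in the deposited annotation. They numbered 73 of 4524 annotated nuclei, of which 67 came from 4 HttQ175/+ mice and 6 from 3 wild-type (WT) mice. By mouse, HttQ175/+ replicates 1 to 4 gave 20, 26, 6 and 15 nuclei, and WT replicates 1 to 3 gave 4, 1 and 1. HttQ175/+ mice carry 1 copy of a knock-in mouse huntingtin allele with an expanded CAG repeat, a mouse model of Huntington's disease, in every cell, so a difference that arises in a cell type and one that reaches it from other cells cannot be told apart. All mice were male C57BL6/J. HttQ175/+ replicate 1 was 15 months of age and the other 6 mice were 14 months. The striatum of each mouse was flash frozen and its nuclei went into 1 droplet library with 3' end reads. Replicates are therefore mice, and the numbers are only names.

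Cholinergic interneurons are a sparse class of large, tonically active striatal neurons that supply most of the acetylcholine of the striatum. They take up choline through a high-affinity transporter (Slc5a7), make acetylcholine with choline acetyltransferase (Chat) and load it into vesicles with a vesicular transporter (Slc18a3). They arise from the embryonic ventral forebrain under LIM-homeodomain factors that include Lhx8 and Isl1, and many also load glutamate into vesicles through Slc17a8. The nuclei surrounding them here are mostly spiny projection neurons (SPNs), of the direct (dSPN) and indirect (iSPN) pathways, with smaller numbers of Sst and Pnoc/Pvalb interneurons.

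HttQ175/+ libraries held 448 to 1239 nuclei with 1096116 to 2256178 unique molecular identifiers (UMIs, counts of distinct captured transcripts). WT libraries held 338 to 558 nuclei with 872558 to 1436425 UMIs. The IN-Chat nuclei together held 191506 UMIs in HttQ175/+ mice and 18409 in WT mice. A count of 3 UMIs was taken as the most that a count of 0 allows, an approximate upper 95% limit. It was therefore 15.7 UMIs per 1000000 UMIs (CPM) in the HttQ175/+ nuclei and 163.0 CPM in the WT nuclei. The exact 95% Poisson interval used later for other WT values reaches further at a count of 0, to 200.4 CPM. 3 cell barcodes occurred in more than 1 library, none of them in an IN-Chat nucleus, and none of 73 IN-Chat nuclei was marked as a doublet. The deposited tables lacked low values for some abundant genes. In each mouse, 329 to 452 genes seen in at least 50 nuclei had no value of 1 UMI, and these genes held 33.5% to 40.0% of all UMIs. The SPN gene Pde10a, for instance, was listed at 2 UMIs in 471 nuclei and at 1 UMI in 0 of 4524. The sources used here do not give the step that produced this. For such genes a 0 is not bounded by the 3-UMI limit. Chat, Slc5a7 and Slc18a3 had values of 1 UMI in every mouse in which they were read. In WT replicate 3, Chat was read in 0 IN-Chat nuclei.

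Most of the annotated nuclei carried cholinergic genes in both genotypes. At least 1 UMI of Chat, Slc5a7, Slc18a3 or Lhx8 was present in 54 of 67 HttQ175/+ nuclei (80.6%) and in 6 of 6 WT nuclei. By mouse this was 17 of 20, 17 of 26, 6 of 6 and 14 of 15 in HttQ175/+ replicates 1 to 4, and 4 of 4, 1 of 1 and 1 of 1 in WT replicates 1 to 3. The nuclei without any of the 4 genes were thus concentrated in HttQ175/+ replicate 2, without which the HttQ175/+ share was 90.2%. At least 2 of the 4 genes were present in 43 HttQ175/+ nuclei (64.2%) and 4 WT nuclei (66.7%).

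The same 4 genes were rare outside IN-Chat. At least 1 was read in 62 of 3411 other neurons (1.82%) and in 22 of 1040 glial and vascular nuclei (2.12%), a level at which free RNA in the droplets cannot be told apart from expression, and at least 2 were read in 3 nuclei of each class. The median depth was 2815 UMIs in IN-Chat nuclei, 2116 in other neurons and 1907.5 in glial and vascular nuclei. With every nucleus thinned to 1100 UMIs, the share carrying a marker was 68.3% in HttQ175/+ IN-Chat nuclei and 95.5% in WT IN-Chat nuclei, against 0.631% in dSPNs of both genotypes. Among other neurons the share was highest in Pnoc/Pvalb interneurons (9.17%) and Sst interneurons (8.68%), where Lhx8 made up 10 of 11 and 22 of 25 of the nuclei with a marker.

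Slc5a7, the choline transporter, was the marker seen most often. It was read in 58 of 73 IN-Chat nuclei, with a median of 3 and a maximum of 14 UMIs where present. Chat was read in 26 nuclei and Slc18a3 in 13, and every nucleus with either of these also had Slc5a7. Lhx8 was read in 34 nuclei, 32 of which also had Slc5a7. A total of 3 nuclei carried all 4 genes, 18 carried 3, 26 carried 2, 13 carried 1 and 13 carried 0. Slc17a8, the vesicular glutamate transporter VGLUT3, was read in 40 nuclei and shared 38 of them with Slc5a7. Ecel1, a membrane peptidase related to the endothelin-converting enzymes, was read in 56 of the 58 nuclei with Slc5a7.

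**Figure D1:**
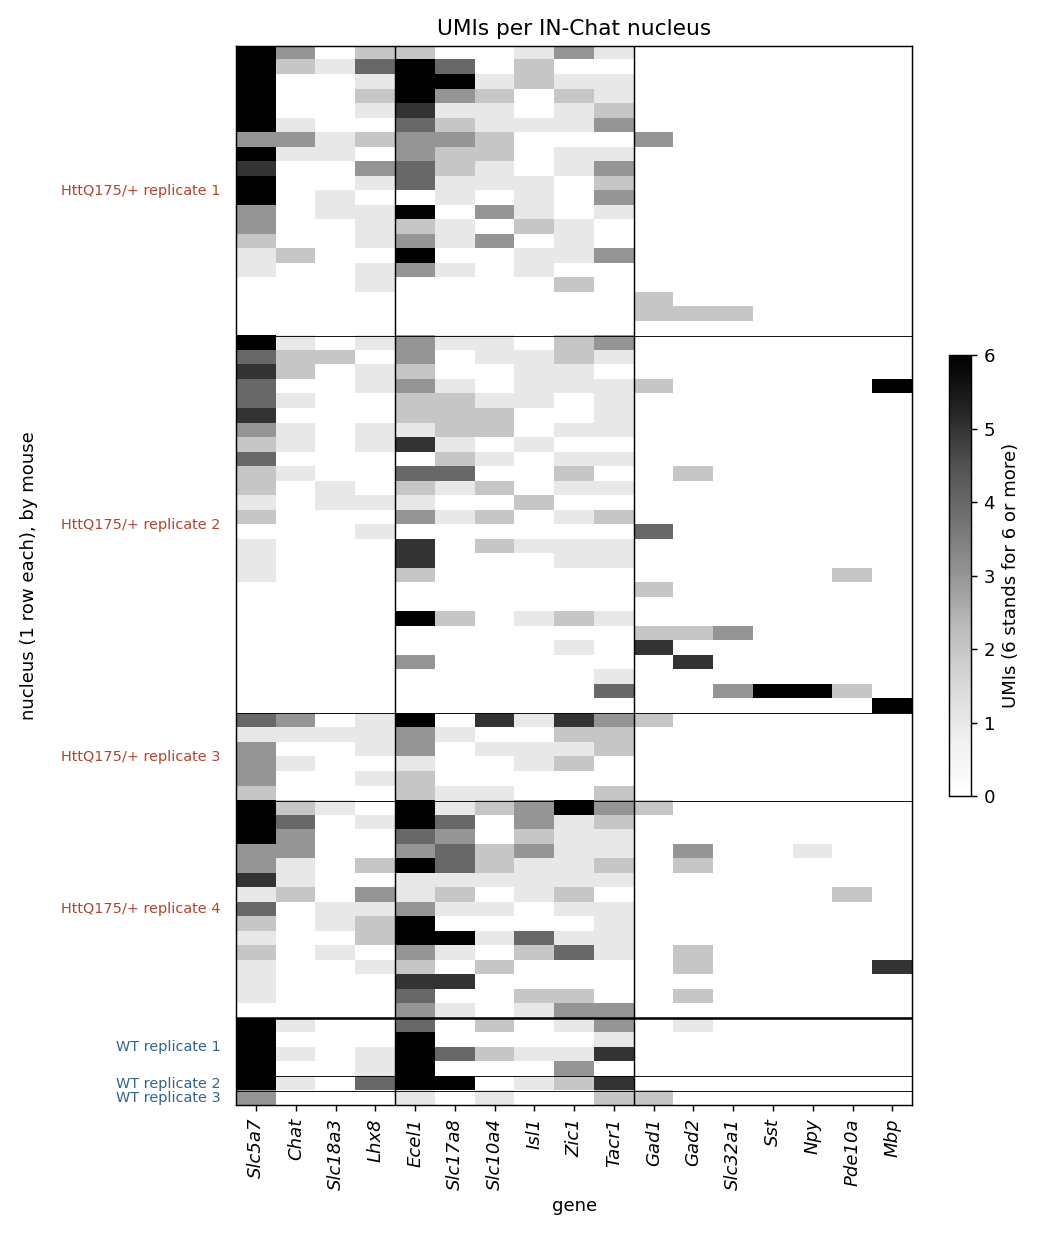
UMIs of each gene (columns) in each of the 73 IN-Chat nuclei (rows), grouped by mouse with HttQ175/+ mice above WT mice and, within a mouse, ordered by UMIs of the 4 rule markers at the left; the middle block holds other genes of cholinergic neurons and the right block GABA, Sst interneuron, SPN and oligodendrocyte genes. The rows without rule markers lie at the foot of HttQ175/+ replicates 1, 2 and 4, and most of them are also blank in the middle block.

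The 13 nuclei with none of the 4 markers were all from HttQ175/+ mice, 3 from replicate 1, 9 from replicate 2 and 1 from replicate 4. Their depth was 1755 to 3678 UMIs (median 2358), within the 1236 to 5322 UMIs (median 2914) of the 60 nuclei with a marker. To see whether other cholinergic genes were present, 7 further genes were counted, chosen after values had been seen: Slc17a8, Slc10a4, Prima1, Isl1, Zic1, Zic4 and Tacr1. At least 3 of the 7 were read in 2 of the 13 nuclei without a marker and in 46 of the 60 with one. None of the 7 was read in 8 of the 13, against 3 of the 60. Cholinergic transcripts were thus read in most of the labelled nuclei, but 11 of 73 had none of the rule markers and fewer than 3 of the other cholinergic genes. The annotation was made from the same nuclei and the 7 genes were chosen after values had been seen. These counts therefore do not check the label independently.

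GABA genes went the other way. Gad1, Gad2 or Slc32a1, which make GABA or load it into vesicles, were read in 7 of the 13 nuclei without a marker (53.8%) and in 13 of the 60 with one (21.7%). Slc32a1 had 8 UMIs in the 13 nuclei and 0 in the 60. In HttQ175/+ replicate 2, 1 nucleus of 1850 UMIs held 46 UMIs of Sst, 20 of Npy and 9 of Nos1, which mark another interneuron class. Gad1 had no value of 1 UMI in any mouse, and Gad2 and Slc32a1 had none in some mice, so these shares of nuclei are minimum values.

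Promoter sequences are given for the 3 genes of choline uptake, acetylcholine synthesis and vesicular loading because every nucleus with Chat or Slc18a3 also held Slc5a7, and because Chat and Slc18a3 share a locus. Slc18a3 (chr14:32462438-32464850, minus strand, mm10) lies inside the annotated span of Chat (chr14:32408203-32465989) on the same strand, so reads of the shared part cannot be assigned to either with certainty. Slc5a7 is on another chromosome (chr17:54273590-54299034, minus strand). The sequences are RefSeq windows on GRCm38.p6 of 250 bases before to 50 after the gene start, printed on the gene's strand, with capitals marking TAAT or its reverse complement ATTA, the core bound by many homeodomain proteins. The windows lie at chr14:32465860-32466159, chr14:32464801-32465100 and chr17:54298985-54299284, all on the minus strand.
Chat: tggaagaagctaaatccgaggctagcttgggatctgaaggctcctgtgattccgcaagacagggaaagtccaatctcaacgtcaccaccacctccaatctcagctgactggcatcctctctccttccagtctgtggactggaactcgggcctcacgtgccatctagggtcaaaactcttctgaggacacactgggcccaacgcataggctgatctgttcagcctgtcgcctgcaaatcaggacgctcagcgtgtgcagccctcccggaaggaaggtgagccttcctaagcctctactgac
Slc18a3: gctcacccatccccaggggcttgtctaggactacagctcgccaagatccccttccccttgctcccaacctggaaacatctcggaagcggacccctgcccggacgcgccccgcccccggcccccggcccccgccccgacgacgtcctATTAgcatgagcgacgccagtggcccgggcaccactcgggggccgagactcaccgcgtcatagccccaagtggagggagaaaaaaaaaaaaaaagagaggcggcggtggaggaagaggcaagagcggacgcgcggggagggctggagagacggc
Slc5a7: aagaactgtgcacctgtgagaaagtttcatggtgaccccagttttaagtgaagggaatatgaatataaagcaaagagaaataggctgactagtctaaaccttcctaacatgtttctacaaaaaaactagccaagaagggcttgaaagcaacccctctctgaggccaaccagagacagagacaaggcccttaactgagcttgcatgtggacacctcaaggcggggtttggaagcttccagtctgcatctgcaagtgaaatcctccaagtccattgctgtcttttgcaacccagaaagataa
The motif occurred in 1 of these 3 windows, that of Slc18a3, 104 bases before the start, and in 19064 of 32851 mouse promoter windows of the same length (58.0%). The Slc18a3 window held 27 CpG dinucleotides, the Chat window 10 and the Slc5a7 window 1, against a median of 7 over all windows. A match is only a run of letters, and none was tested for binding.

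Levels were compared with the other neuron types in the 4 HttQ175/+ mice, since no WT mouse had the minimum of 5 IN-Chat nuclei. For each mouse the CPM of its nuclei of a type were averaged, and the ratio was taken to the highest of the 6 other neuron types with 20 CPM added to both, which lowers the ratio of weakly read genes. Because the annotation was made from these nuclei, the levels describe the class and carry no test. Gene lists were chosen with earlier results of these data known, so counts over them carry no test either. Of 3190 genes with at least 15 UMIs in IN-Chat nuclei and a UMI in at least 4 mice, 28 (0.878%) were at least 4 times the highest other type. The genes nearest this limit were Sdk1 (4.14 times) and Prima1 (4.11 times) inside it, and Ptchd4 (3.98 times) and Cd44 (3.95 times) outside it. Of the 25 genes with the largest ratios, 2 have provisional names and 21 are described below.

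Genes that handle acetylcholine were among the leading genes. Slc5a7 was at 1314, 734, 1108 and 1197 CPM in HttQ175/+ replicates 1 to 4 (1088 ± 250.4, SD, n = 4), against 11.9 CPM in Sst interneurons, the next highest type, a ratio of 34.8. Chat was at 175.1, 126, 231 and 309 CPM (210.4 ± 78.6) and at most 0.455 CPM in any other neuron type. Slc18a3 was at 84.0, 62.0, 57.2 and 143 CPM, but with 14 UMIs it missed the minimum of 15 UMIs. In each of the 4 mice all 3 were above the mean level of every other neuron type.

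Of the other genes of this list, the 4 that passed the filter were also above every other neuron type. Slc10a4, a transporter-like protein of cholinergic and monoaminergic vesicles, was at 265, 222, 288 and 279 CPM (263 ± 29.4), with 12.7 times the level of the next type. Slc17a8 was at 382, 292, 124 and 723 CPM (380.3 ± 252), a wide spread between mice, and was 18.0 times the next type. Prima1, which anchors acetylcholinesterase in the membrane, was at 144 ± 23.6 CPM. Ache, acetylcholinesterase itself, was at 513 ± 32.1 CPM and 3.08 times the level of Sst interneurons, under the limit of 4. In all, 6 of the 9 genes of acetylcholine handling passed the filter and 5 were past the limit of 4, against 0.878% of all genes tested. Their median log2 ratio was 3.58, against -0.27 over all genes tested. This list holds the rule markers Slc5a7, Chat and Slc18a3, and the filter needs UMIs in IN-Chat itself. Its counts and median therefore only describe the class. Of the genes that missed the filter, the choline transporter-like gene Slc44a1 had 9 UMIs and was at 50.2 ± 26.0 CPM, against 78.0 CPM in Pnoc/Pvalb interneurons. Bche, butyrylcholinesterase, had 1 UMI.

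Acly, ATP citrate lyase, which makes cytosolic acetyl-CoA, was also among the leading genes. It was at 784, 407, 789 and 711 CPM (673 ± 181), 6.36 times the level in Pnoc/Pvalb interneurons. It was in no list chosen for this comparison.

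Among transcription factors of the lineage, 5 of 11 passed the filter and 2 were past the limit of 4, against 0.878% of all genes tested. Of these 2, Lhx8 is itself a rule marker. Zic1, a zinc-finger factor of ventral forebrain progenitors, was at 231, 253, 496 and 575 CPM (389 ± 173), 11.9 times the next type. Lhx8 was at 312, 103, 272 and 351 CPM (259 ± 109), and its ratio of 4.37 was to Sst interneurons, which held 44.0 CPM. Isl1 was at 260.2 ± 155 CPM and 2.68 times the level of dSPNs, which also express it, at 84.5 CPM. Nkx2-1, an earlier factor of the same origin, was at 111 ± 61.0 CPM, under the 257 CPM of Pnoc/Pvalb interneurons. Lhx6, which marks the sister interneuron lineages, had 7 UMIs in all. Six3, a factor of the SPN lineage, had 1 UMI. Zic1 and Zic4 overlap on opposite strands, and whether strand was used in counting is not given, so their counts are uncertain.

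Few receptors could be compared, since 21 of 25 listed receptors missed the filter on counts. Tacr1, the substance P receptor, was at 404 ± 64.4 CPM, against 117 CPM in Sst interneurons (3.10 times). Chrm2, an inhibitory muscarinic receptor, was at 109 ± 41.5 CPM (1.79 times the next type), and Htr2c was at 72.2 ± 84.3 CPM, under the 166 CPM of iSPNs. No UMI was read for 7 of the receptors, namely Ngfr, Chrm4, Chrm3, Mc4r, Chrna3, Chrna4 and Chrna7. A count of 0 in 73 nuclei at these depths limits the level read and does not show that the receptors are absent.

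Channels of pacemaking and repolarisation were mostly below the highest of the other neuron types. Of 27 listed channels 13 passed the filter, with a median log2 ratio of -0.79 to the highest other type against -0.27 over all genes tested. Kcnc1, a fast potassium channel, was at 207 ± 72.7 CPM, against 855 CPM in Pnoc/Pvalb interneurons and 418 CPM in Sst interneurons, but above the 107 CPM of dSPNs and the 123 CPM of iSPNs. Cacna1a, a presynaptic calcium channel, was at 452 ± 173 CPM, against 1002 CPM in Pnoc/Pvalb interneurons, 461 CPM in Sst interneurons and 355 CPM in dSPNs. Kcnt2, a sodium-activated potassium channel outside the list, was among the leading genes at 669.6 ± 307 CPM, 12.4 times the next type.

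The GABA-synthesis genes Gad1 and Gad2 were below their level in Pnoc/Pvalb interneurons. Gad1 averaged 96.8 ± 70.4 CPM, against 668 CPM in Pnoc/Pvalb interneurons, and Gad2 114 ± 123 CPM, against 227 CPM. The lowest other type for Gad1 was eccentric SPNs, at 98.4 CPM. Gad2 was below dSPNs (127 CPM) and iSPNs (144 CPM) but above eccentric SPNs (85.7 CPM) and SPNs of unknown subtype (51.9 CPM). Of the Gad1 UMIs, 13 came from the 13 nuclei without a rule marker and 15 from the 60 nuclei with a marker. The vesicular glutamate transporters Slc17a6 and Slc17a7 had 0 UMIs. Of the 7 genes listed 3 passed the filter, namely Gad1, Gad2 and Slc17a8, and Slc17a8 alone was past the limit of 4, against 0.878% of all genes tested.

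The largest ratio of all belonged to Ecel1, at 1176, 794, 1068 and 1612 CPM (1163 ± 340.2) in the 4 HttQ175/+ mice against 9.33 CPM in Sst interneurons, a ratio of 40.3. Insrr, an insulin receptor-related receptor, was at 139, 176, 188 and 188 CPM (173 ± 23.1) and was listed at 0 in every other neuron type; it overlaps a gene on the opposite strand, so its count is uncertain. The amino acid transporter-like Slc7a14 was at 1279.5 ± 456 CPM, the copine Cpne4 at 1089.5 ± 215, the pseudokinase Nrbp2 at 1081 ± 114, protein kinase C alpha (Prkca) at 1013 ± 371 and the receptor phosphatase Ptprs at 2659 ± 620.4. Their ratios to the next type were 7.18, 6.83, 5.23, 5.05 and 4.57. Ptprs had no value of 1 UMI in any mouse, so its levels are minimum values and its ratio is uncertain. The remaining 7 named genes, Ndnf, Kctd6, Fign, Rgs6, Whrn, Tmtc2 and Npnt, had ratios between 4.52 and 8.48. Chat, Kcnt2, Slc7a14, Rgs6, Nrbp2, Prkca, Tmtc2 and Npnt also overlap annotated genes on the opposite strand, so the same uncertainty holds for their counts.

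**Figure D2:**
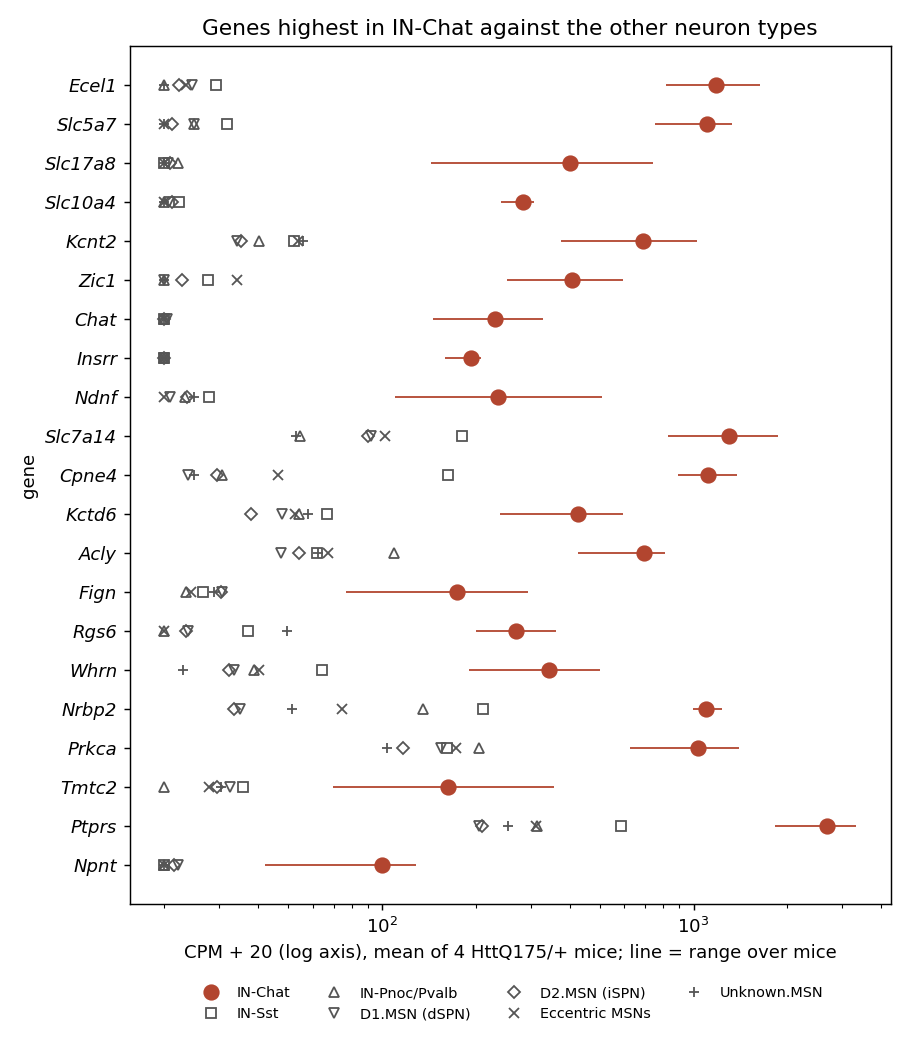
Levels of the 21 named leading genes in IN-Chat (filled circles, mean of 4 HttQ175/+ mice, line from the lowest to the highest mouse) and in the 6 other neuron types (open symbols), as CPM plus 20 on a log axis. Ecel1 and Slc5a7 stand farthest from every other type, and for all 21 genes the lowest HttQ175/+ mouse lies above the mean of the highest other type.

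Genes at most 1/4 of the mean of the other neuron types were few among those tested, 3 of 3190 (0.094%). Ppp3ca, the catalytic subunit of calcineurin, was at 181 ± 120.3 CPM, against a mean of 1193 CPM over the other types. The adhesion receptor Adgrb1 was at 90.7 ± 42.8 against 514 CPM, and Camk2a at 84.4 ± 62.0 against 462 CPM. Of the 10 genes with the lowest ratios, which also hold Matk, Phactr1, Celf2, Tnik, Cpne5 and Celf5, 7 had no value of 1 UMI in any mouse. Ppp3ca, Adgrb1 and Camk2a were all among these 7, so their IN-Chat levels are minimum values. The filter of 15 UMIs kept out most SPN genes, which were nearly unread in IN-Chat nuclei. The 12 SPN markers together had 53 UMIs in HttQ175/+ and 0 in WT IN-Chat nuclei. Pde10a was read in 3 of 73 IN-Chat nuclei (4.11%), fewer than in any other class, against 24.0% of Sst interneurons and 52.4% of oligodendrocytes, whose median depths were 2119 and 2158.5 UMIs.

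Markers of other neuron classes were few, and those of glia differed by gene. The 11 markers of other interneurons had 79 UMIs, 75 of them in the 1 nucleus with Sst, Npy and Nos1 described above, and Pvalb, Pthlh, Vip, Calb2, Htr3a and Pnoc were at 0. The 5 markers of excitatory neurons were all at 0. The 3 markers of oligodendrocyte progenitors had 41 UMIs, with a summed level of 154 to 276 CPM in HttQ175/+ mice and 217 CPM in the pooled WT nuclei. Of these, Vcan, a matrix proteoglycan, was at 145 ± 69.9 CPM in HttQ175/+ mice and 2.71 times the level of Sst interneurons, Pdgfra was at 56.5 ± 44.7 CPM from 13 UMIs in all, and Cspg4 was at 0. The 5 astrocyte markers had 38 UMIs, with a summed level of 0 to 677 CPM in HttQ175/+ mice and 380.2 CPM in WT. Slc1a2, a glutamate transporter, held 32 of these and was at 88.6, 139, 0 and 633 CPM in HttQ175/+ replicates 1 to 4, while Aqp4 and Gja1 were at 0. The 5 oligodendrocyte markers had 29 UMIs (0 to 308 CPM in HttQ175/+ mice and 0 in WT), the 5 microglial markers 4 and the 4 vascular markers 3. Their part in the levels above was not tested.

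IN-Chat nuclei made up a larger share of neurons in HttQ175/+ libraries than in WT libraries. The shares were 3.17%, 2.65%, 1.79% and 2.92% in HttQ175/+ replicates 1 to 4 (2.63 ± 0.602%, SD, n = 4) and 1.28%, 0.389% and 0.222% in WT replicates 1 to 3 (0.630 ± 0.568%, n = 3). The lowest HttQ175/+ mouse was above the highest WT mouse, a difference of 2.00 percentage points between the means. Over the 35 possible splits of the mice, a two-sided exact permutation test gave p = 0.0286, the smallest it can give, and p = 0.0857 after Benjamini-Hochberg adjustment over the 3 interneuron types. The comparison rests on 6 WT nuclei, and the exact binomial intervals of HttQ175/+ replicate 3 (0.658% to 3.85%) and WT replicate 1 (0.349% to 3.24%) overlap.

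For the other interneuron types the mice of the genotypes overlapped. Sst interneurons were 9.17 ± 3.05% of neurons in HttQ175/+ mice and 7.95 ± 3.24% in WT mice (exact permutation p = 0.629). Pnoc/Pvalb interneurons were 3.16 ± 1.31% in HttQ175/+ mice and 4.38 ± 2.51% in WT mice (exact permutation p = 0.486). As a share of interneurons alone, IN-Chat nuclei were 12.7 percentage points higher in HttQ175/+ mice, with p = 0.0286 by the same exact permutation test. As a share of all nuclei the difference was 1.53 percentage points, with p = 0.0571 by that exact permutation test. Counting only IN-Chat nuclei with a marker, it was 1.60 percentage points among neurons, with p = 0.0286 by the exact permutation test. More nuclei of this class and fewer nuclei of the other neurons cannot be told apart from shares, and nuclei per library also differed, at 448 to 1239 in HttQ175/+ and 338 to 558 in WT libraries, the part of which was not tested.

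**Figure D3:**
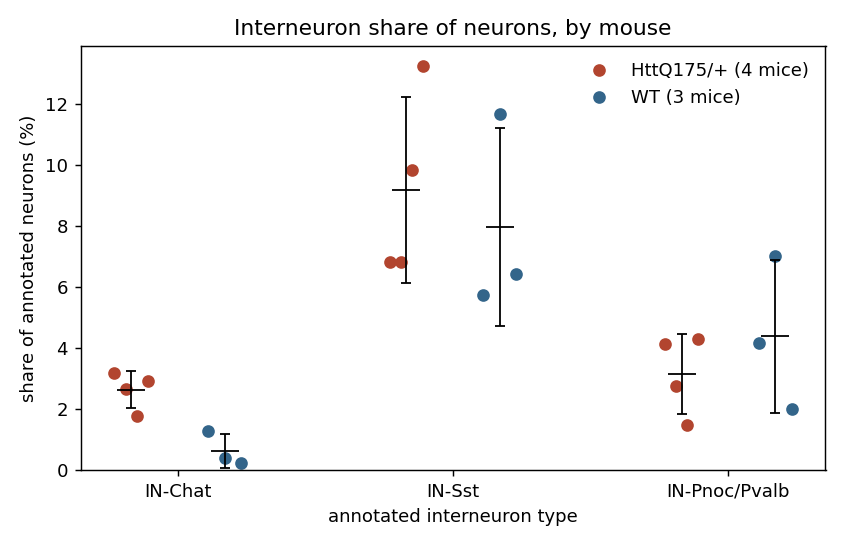
Share of annotated neurons (percent) for each interneuron type, with 1 point per mouse and the mean with its SD, HttQ175/+ mice left of WT mice. The 4 HttQ175/+ mice lie between 1.79% and 3.17% for IN-Chat and all above the WT mice, while for IN-Sst and IN-Pnoc/Pvalb the genotypes overlap.

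IN-Chat nuclei yielded more UMIs than other neurons of the same HttQ175/+ mouse. Median UMIs per nucleus were 3134, 2549, 2546.5 and 2942 in IN-Chat and 2252, 1592.5, 2466 and 1953 in the other neurons of HttQ175/+ replicates 1 to 4. The mean difference was 727 UMIs, higher in 4 of 4 mice, with p = 0.125 by an exact two-sided sign-flip permutation test, the smallest p that 4 mice allow. Against other interneurons the mean difference was 595 UMIs. The order did not hold against each type, since dSPNs of HttQ175/+ replicate 3 had a median of 2636 UMIs, above its IN-Chat nuclei. In WT mice, with 4, 1 and 1 IN-Chat nuclei, the medians were 2458.5, 5071 and 1658 UMIs in IN-Chat and 2596, 2702.5 and 2635.5 in the other neurons of replicates 1 to 3, so IN-Chat was higher in 1 of 3.

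Whether the HttQ175 allele changed transcripts within IN-Chat nuclei could only be described. The planned fit needed at least 2 mice per genotype with at least 5 nuclei, and the WT mice had 4, 1 and 1, so no gene was tested between genotypes. The UMIs of the 6 WT nuclei, 4 of them from 1 mouse, were pooled, given with a 95% exact Poisson interval that covers counting error only, and set beside the 4 HttQ175/+ mice. The WT value is summed UMIs over summed depth, whereas each HttQ175/+ mouse value is a mean of CPM over nuclei. Deep nuclei thus weigh more in the WT value, and the orders below compare unlike measures. Over the 3190 genes, all 4 HttQ175/+ mice lay below the pooled WT value for 23.9% and above it for 26.7%. Of the 25 leading genes, the HttQ175/+ mice all lay below the WT value for 5 and above it for 3, which is close to or under those shares over all genes.

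Of the 9 genes of acetylcholine handling, 7 were read in both genotypes, and Slc18a3 and Bche had 0 UMIs in WT nuclei. Slc5a7 was at 734 to 1314 CPM in the 4 HttQ175/+ mice and 2173 CPM in the WT pool (interval 1552 to 2959), from 30, 7 and 3 UMIs in WT replicates 1 to 3. Chat was at 126 to 309 CPM in HttQ175/+ mice and 163 CPM in WT (33.6 to 476). Slc18a3 was read in 13 HttQ175/+ nuclei and in 0 of 6 WT nuclei, where a count of 0 allows up to 163.0 CPM, above the mean of each HttQ175/+ mouse, so a difference was not detectable at this depth. Slc10a4 was at 222 to 288 CPM in HttQ175/+ mice and 272 CPM in WT (88.2 to 634), and Ache at 479.6 to 557 CPM in HttQ175/+ mice and 489 CPM in WT (224 to 928), both nearly the same in the genotypes within wide WT intervals.

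The leading genes whose WT value was above every HttQ175/+ mouse included Slc5a7, Ecel1, Acly and Npnt, and Tacr1 of the receptor list shared this order. Ecel1 was at 794 to 1612 CPM in HttQ175/+ mice and 1793 CPM in WT (1234 to 2517). Acly was at 407 to 789 CPM in HttQ175/+ mice and 1629.6 CPM in WT (1099.5 to 2326), and Tacr1 at 326 to 470.3 CPM in HttQ175/+ mice and 869 CPM in WT (497 to 1411). For Slc5a7, Acly and Tacr1 the lower end of the WT interval exceeded the highest HttQ175/+ mouse, while for Ecel1 it did not. These genes were picked by their values, and 761 of 3190 genes share this order. With HttQ175/+ nuclei limited to those with a rule marker, 749 genes (23.5%) had this order, among them Slc5a7, Ecel1, Acly and Tacr1 but not Npnt.

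Transcription factors lay within or near the WT interval. Lhx8 was at 103 to 351 CPM in HttQ175/+ mice and 326 CPM in WT (119.6 to 709), Zic1 at 231 to 575 CPM in HttQ175/+ mice and 380.2 CPM in WT (153 to 783), and Isl1 at 141 to 484 CPM in HttQ175/+ mice and 109 CPM in WT (13.2 to 392). Htt itself was at 213, 175.4, 93.9 and 33.2 CPM in HttQ175/+ replicates 1 to 4 and 380.2 CPM in WT (153 to 783, from 7 UMIs). Of the WT UMIs, 5 were in the 1 nucleus of WT replicate 2. In SPNs Htt was at 172 ± 28.1 CPM in HttQ175/+ mice and 183 ± 2.27 CPM in WT mice. The 3' reads do not reach the repeat and cannot tell the alleles apart, so Htt does not check the genotype labels here.

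**Figure D4:**
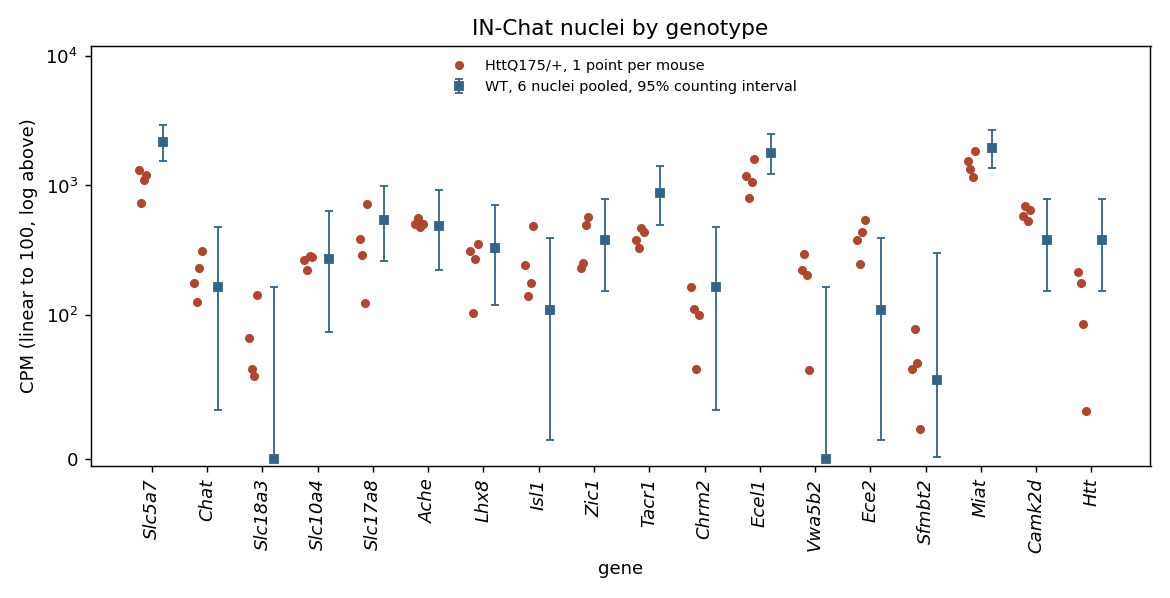
CPM of cholinergic, receptor and other genes in IN-Chat nuclei, linear to 100 and logarithmic above, with HttQ175/+ mice as 1 point each on the left and the pooled 6 WT nuclei with their 95% Poisson interval, or the 3-UMI limit for a count of 0, on the right. Slc5a7 and Tacr1 have every HttQ175/+ mouse below the WT interval, and most other genes have HttQ175/+ mice inside it.

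The genes named in earlier results as changed by genotype in SPNs were next followed in IN-Chat nuclei, where 7 of 22 passed the filter on counts. The 12 genes of this list with a lower mean in HttQ175/+ than in WT SPNs had 0 to 13 UMIs each in all IN-Chat nuclei, and 9 of the 12 lack values of 1 UMI in at least 1 mouse. Pde10a, a striatal phosphodiesterase, was at 31.3 CPM (6 UMIs) in HttQ175/+ and 0 in WT IN-Chat nuclei, against 1801 ± 32.4 CPM in HttQ175/+ SPNs (SD, n = 4) and 4209 ± 61.6 CPM in WT SPNs (n = 3). Tac1 and Abi3bp had no UMI in IN-Chat nuclei of either genotype.

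Several genes higher in HttQ175/+ SPNs were also read in WT IN-Chat nuclei, Miat with 36 UMIs, Camk2d with 7 and Shank1 with 5. Of the Shank1 UMIs, 4 were in the 1 nucleus of WT replicate 2. Miat, a long noncoding RNA, was at 1551 CPM in HttQ175/+ and 1956 CPM in WT IN-Chat nuclei (1369.7 to 2707), against 157 ± 34.5 CPM in HttQ175/+ and 49.9 ± 13.5 CPM in WT SPNs. Camk2d, a calcium/calmodulin-dependent kinase subunit, was at 647 CPM in HttQ175/+ and 380.2 CPM in WT IN-Chat nuclei (153 to 783), against 37.9 ± 12.8 CPM in HttQ175/+ and 6.19 ± 3.05 CPM in WT SPNs. Shank1, a postsynaptic scaffold, was at 214 CPM in HttQ175/+ and 272 CPM in WT IN-Chat nuclei (88.2 to 634), against 128 ± 15.4 CPM in HttQ175/+ and 47.1 ± 14.6 CPM in WT SPNs. For Miat and Camk2d the WT IN-Chat interval lay above the SPN means of both genotypes.

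In IN-Chat, all 4 HttQ175/+ mice lay above the pooled WT value for 3 of the 7 genes that passed the filter, against 26.7% of all genes tested. These were Vwa5b2, Ece2 and Camk2d, whose SPN means were also higher in HttQ175/+ mice. Camk2d, described above, was at 534 to 692 CPM in IN-Chat nuclei of the 4 HttQ175/+ mice. Vwa5b2 was at 224, 294, 202 and 61.9 CPM in IN-Chat nuclei of HttQ175/+ replicates 1 to 4, with 42 UMIs in 28 nuclei, and at 0 UMIs in the 6 WT nuclei, where a count of 0 allows up to 163.0 CPM. In SPNs it was at 103 ± 17.3 CPM in HttQ175/+ and 12.3 ± 4.65 CPM in WT mice. Ece2, a homologue of the endothelin-converting enzyme, was at 381, 248, 435 and 538 CPM in IN-Chat nuclei of HttQ175/+ replicates 1 to 4 and at 109 CPM in WT IN-Chat nuclei (13.2 to 392, from 2 UMIs in 1 nucleus). In SPNs it was at 162 ± 18.3 CPM in HttQ175/+ and 54.6 ± 10.0 CPM in WT mice. The WT range in IN-Chat took in HttQ175/+ replicate 4 for Vwa5b2, replicates 1 and 2 for Ece2 and all 4 HttQ175/+ mice for Camk2d. None of these differences therefore exceeded the counting error of the 6 WT nuclei in every mouse.

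The rest could not be placed. Sfmbt2 was at 73.1 CPM in HttQ175/+ and 54.3 CPM in WT IN-Chat nuclei (1.38 to 303, from 1 UMI), against 46.5 ± 5.94 CPM in HttQ175/+ and 0.164 ± 0.284 CPM in WT SPNs. Onecut2 had 7 UMIs in HttQ175/+ and 1 UMI in WT IN-Chat nuclei, while Nrn1 and Shox2 had none in either.

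**Figure D5:**
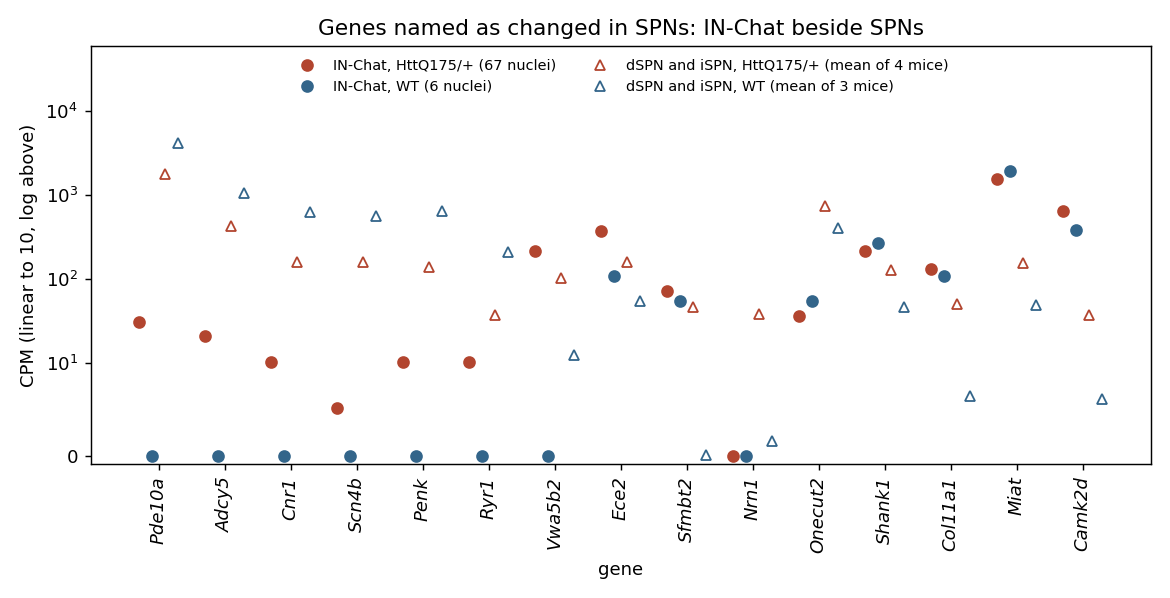
CPM, linear to 10 and logarithmic above, of genes named in earlier results as changed in SPNs, in IN-Chat nuclei (circles, pooled) and in dSPNs and iSPNs together (triangles, mean over mice), with HttQ175/+ left of WT in each class; WT circles at 0 rest on 18409 UMIs. Pde10a and the other genes lower in HttQ175/+ SPNs sit near 0 in IN-Chat, whereas Miat and Camk2d sit above the SPN values in both genotypes.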

How the data were processed

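Nuclei were isolated from flash-frozen striatum and made into Chromium 3' libraries, per the labels' protocols, and, per the submitters' processing notes, Cell Ranger 3.0.2, Seurat and the mm10 build were used. For each mouse the authors deposited values on a natural log scale: UMIs were scaled to 10000 per nucleus and 1 was added before the log. Whole UMIs were recovered for 100% of 5824756 values above 0, at a tolerance of 0.02. Cell types come from the authors' deposited annotation of nuclei, whose map coordinates, a score without a unit, were not used. A smoothed table was not used. The sources used here give no filters on nuclei, annotation method, use of strand or removal of doublets. Scrublet in scanpy 1.11.5 marked 60 of 4524 nuclei (1.33%), with its own threshold per mouse, so the counts per mouse are not comparable, and all were kept.

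No count model was used, because the unit is a natural log. The planned limma fits between genotypes needed 2 mice per genotype with 5 nuclei and were not run. Ratios were tested on simulated data. Named genes are the 25 with the largest ratio to the highest other neuron type, the 10 with the lowest ratio to their mean, list members and Htt, with provisional names counted only. Intervals were computed with scipy 1.17.1 at 95%, as exact binomial or Poisson intervals. The members and lists were chosen with earlier results of these data known. Coordinates of genes are from GENCODE vM21 on mm10. Some genes named by this rule are left out of the text.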

Additional observations from a re-analysis of the deposited data

Results flagged for a closer look

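Among 29 groups of HttQ175/+ values checked for a mouse far from the others, Ndnf, a secreted neurotrophic factor, stood out in IN-Chat nuclei. It was at 489.2 CPM in HttQ175/+ replicate 3, with 6 nuclei, against 145.3 CPM in the nearest HttQ175/+ mouse. That level came from 9 UMIs in 2 of the 6 nuclei, with 8 of the UMIs in 1 nucleus. Chance flags about 1 in 20 such groups.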

How the results depend on the processing

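The higher share of IN-Chat nuclei among neurons in HttQ175/+ mice kept its direction under every alternative run. The difference lost p = 0.0286 as a share of all nuclei (1.53 percentage points, exact permutation p = 0.0571) and when only nuclei with at least 2 rule markers counted (1.39 percentage points, exact permutation p = 0.0571), an alternative chosen after seeing the data. Leaving out each mouse in turn gave 1.80 to 2.32 percentage points, where fewer splits leave no p under 0.0667. Without marked doublets, also added after seeing the data, it was 2.04 percentage points. The share of HttQ175/+ nuclei with a rule marker was 68.3% thinned to 1100 UMIs, 64.2% for at least 2 markers, and 76.9% to 90.2% with a mouse left out. The count of 28 leading genes ranged from 19 with 50 CPM added to 41 with 5 CPM added, and was 33 over nuclei with a rule marker, chosen after seeing the data. The difference in depth was 640 to 942.5 UMIs with a mouse left out. The genotype fits within IN-Chat and against SPNs, with all their alternatives, were not run, because no WT mouse reached the minimum of 5 nuclei. No paired analysis was possible because the labels give no replicate numbers shared by the genotypes. With 18409 UMIs in WT IN-Chat nuclei, a gene at a level under 163.0 CPM can be missed there.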
